A study of Mus musculus with 4 samples.

Results

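Genes of the CNTF, LIF, Fgf2 and Stat3 signalling axis were read in mouse retinas after a pressure injury. The 10 members are the ligand genes Cntf, Lif and Fgf2, the receptor genes Cntfr, Lifr, Osmr and Il6st, the kinase gene Jak1, the transcription factor gene Stat3 and the feedback inhibitor gene Socs3. Members were chosen by symbol, and 10 of 10 were found among the 14572 entries of the deposited table. Acute ocular hypertension, in which eye pressure is raised to model the damage of glaucoma, had been applied for 1 h, and the retinas were taken 5 days later. The 2 wild-type libraries (P1041 and P1033) and the 2 libraries labelled PLSCR1 transgenic (TP-1036 and TP-1040) all came from mice on the C57BL/6 strain and all from injured eyes, so each comparison is between genotypes after injury. PLSCR1 is a phospholipid scramblase, and the sources used here do not say which promoter drives the transgene or how many animals a library holds. The age in the labels is embryonic, which does not suit an injured eye, and it was not used.

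CNTF and LIF are cytokines of the interleukin-6 family. CNTF binds the CNTF receptor, which is anchored in the membrane and carries no signal itself, and LIF binds the LIF receptor. Both then signal through gp130, the protein of Il6st, to the kinase JAK1 and the transcription factor STAT3, which enters the nucleus and raises, among others, Socs3, whose product shuts the receptor off again. In the injured retina LIF and CNTF are known as signals to Müller glia and neurons, and FGF2 is known as a survival factor for photoreceptors that injured retinas make in larger amounts.

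The libraries held between 28866589 and 41215649 estimated reads. Plscr1, the gene named by the transgene, had 229 and 276 reads in wild type and 371 and 329 reads in the transgenic-labelled libraries, and the groups overlapped, at 8.17 ± 0.267 and 8.93 ± 1.22 CPM (read counts divided by library size; mean ± SD over 2 libraries per group). Whether reads of the transgene would be counted under this entry was not tested, so these reads do not settle the genotype. The libraries are therefore called transgenic-labelled here. The numbers in the column names, those of wild type included, are in no sample's label. The assignment of TP-1036 and TP-1040 rests on TP and case in the column name. The transgenic group is the only one that is not wild type. TP-1036 stood apart from the other libraries in crystallin reads, with a summed level of 3 lens genes of 233 CPM against 0.818 to 5.71 CPM elsewhere, and in transcript length. Across the 12687 tested genes the log2 difference of TP-1036 from the wild-type mean had a Spearman correlation of -0.455 with transcript length, against -0.058 for TP-1040 and 0.158 between the wild-type libraries (genes are not independent replicates). The members' levels are therefore given for every library.

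The components of the axis were present at very unequal levels. On the FPKM scale, which scales reads to library size and to the length of the longest transcript, Fgf2 was the first of the 10 with 39.9 ± 6.30 in wild type and 36.2 ± 10.4 in the transgenic-labelled libraries (SD, n = 2 per group). It was followed by Jak1 at 32.1 ± 0.163 and 31.1 ± 2.42 FPKM, and Fgf2 and Jak1 overlapped over the 4 libraries. Stat3 stood at 25.3 ± 2.93 and 25.7 ± 4.05 FPKM and Il6st at 25.0 ± 1.75 and 25.2 ± 0.0821 FPKM, and these values overlapped as well. Next in order were Cntfr between 17.9 and 25.4 FPKM, which overlapped Il6st, Lifr between 10.4 and 15.4 FPKM, Osmr between 7.72 and 10.8 FPKM, Cntf between 6.06 and 9.67 FPKM and Socs3 between 3.74 and 7.76 FPKM. Lifr and Osmr, Osmr and Cntf, and Cntf and Socs3 each overlapped with their neighbour in this order. The order held outside the spread of all 4 libraries at the steps of Jak1 above Stat3, Cntfr above Lifr, and Socs3 above Lif. Lif was the rarest, between 0.430 and 0.727 FPKM, so the ligand of the LIF receptor lay under 1 FPKM in each library while the receptor itself lay above 10 FPKM.

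**Figure D1:**
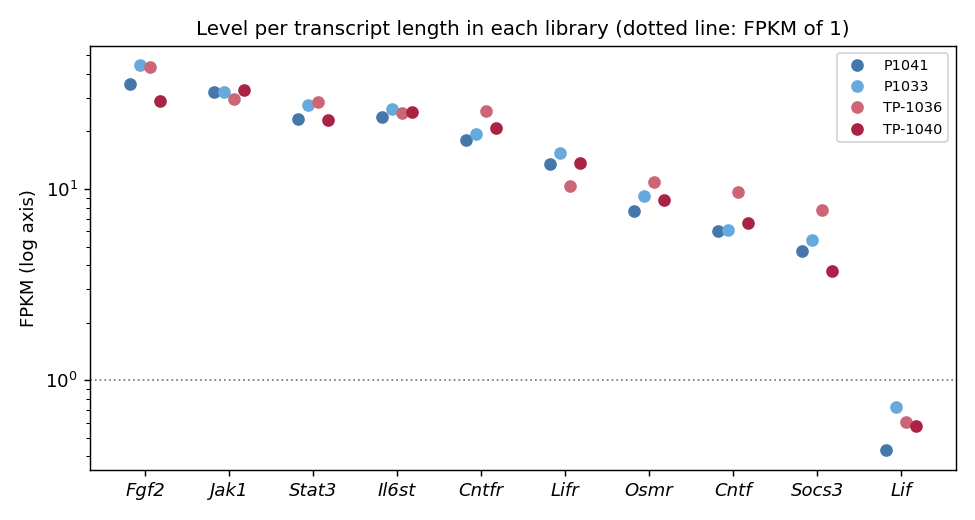
Level of each of the 10 genes per transcript length (FPKM, log axis) in each of the 4 libraries, in order of the mean. Fgf2, Jak1, Stat3 and Il6st lie above 20 FPKM in each library, and Lif is the one gene under the dotted line at 1 FPKM.

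The comparison asked whether any of these genes differs between the genotypes after injury. None of the 9 tested genes did so by the test over the whole table. With edgeR's quasi-likelihood test 0 of 9 passed a Benjamini-Hochberg adjusted p of 0.05, beside 0% of all 12687 tested genes, and 1 (Cntfr) had an unadjusted p under 0.05, beside 8.88% of all tested genes. DESeq2 and limma also passed 0 of the 9. The log2 difference was above 0 for 6 of the 9 and below 0 for 3, beside 50.4% above 0 among all tested genes, with a median of 0.05 against 0.0023. Libraries of the genotypes did not overlap for 2 of the 9 (Cntf and Cntfr), which is a smaller share than the 47.8% of all tested genes. With 2 libraries per group an exact two-sided permutation test cannot give a p below 0.333. RNA came from whole retina, so fewer cells of a type and less RNA per cell cannot be told apart.

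**Figure D2:**
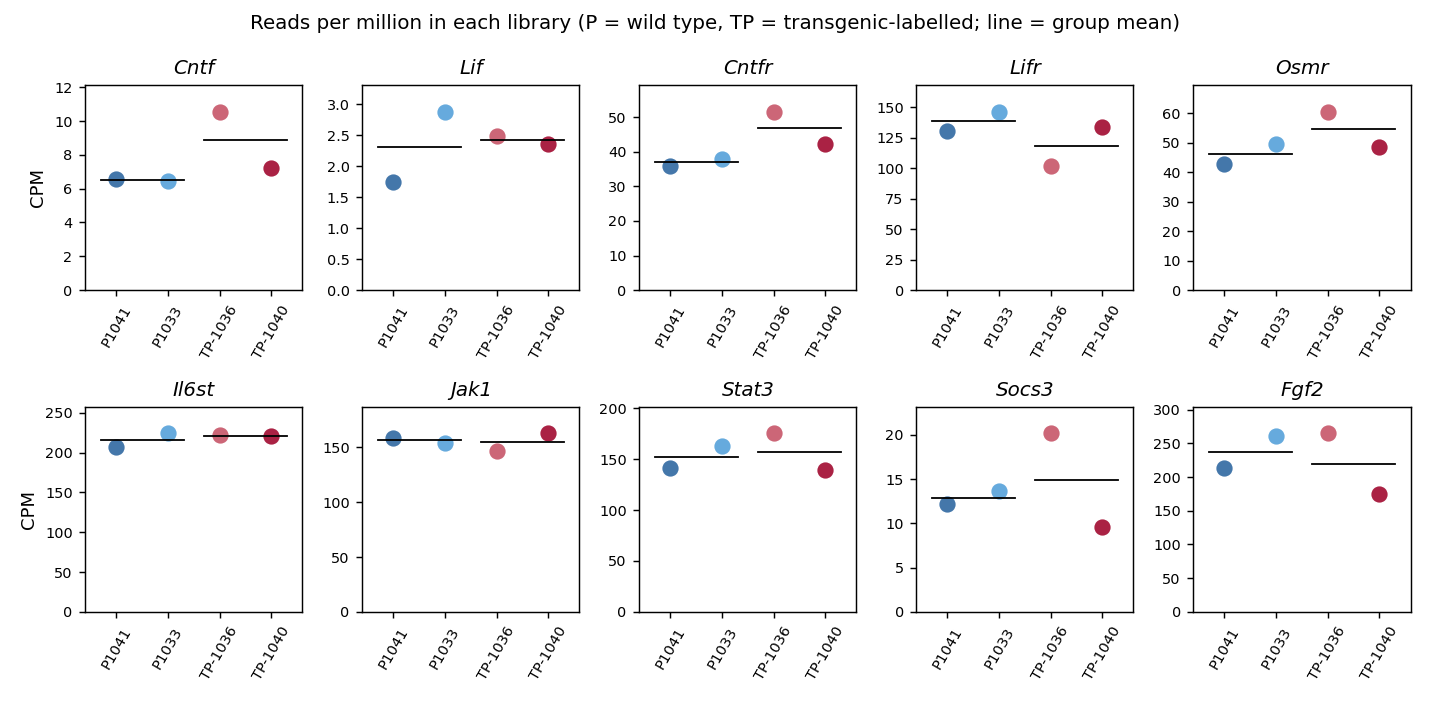
Reads scaled to library size (CPM, axes from 0) of each gene in the wild-type libraries P1041 and P1033 and the transgenic-labelled libraries TP-1036 and TP-1040, with a line at each group's mean. Socs3 and Fgf2 have their highest and lowest values both in the transgenic-labelled group, at 20.1 and 9.63 CPM and at 265 and 174 CPM.

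Among the ligands, Cntf had a higher value in the transgenic-labelled group, carried mostly by TP-1036. Cntf, which in the eye is made mainly by glia, measured 6.54 and 6.47 CPM in P1041 and P1033 and 10.6 and 7.20 CPM in TP-1036 and TP-1040. Both transgenic-labelled libraries lay above both wild-type libraries, TP-1040 by little. The log2 difference was 0.45 ± 0.22 (SE) with an adjusted p of 0.538 (edgeR), with 0.15 left when TP-1036 was taken out and 0.70 when TP-1040 was. The whole of Cntf (GRCm38 chr19:12763660-12765632, minus strand) lies inside Zfp91, a gene on the same strand, so reads of the shared stretch were divided between them by an estimate. Cntf took 3.27% and 3.33% of the reads of the pair in wild type and 5.13% and 3.66% in TP-1036 and TP-1040, while Zfp91 itself stood at 193 and 188 CPM and at 195 and 189 CPM.

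Lif, the cytokine that Müller glia release after retinal injury, had 50 and 95 reads in P1041 and P1033 and 94 and 96 reads in TP-1036 and TP-1040. That is 1.74 and 2.88 CPM against 2.48 and 2.35 CPM, so the transgenic-labelled values lay between the wild-type ones. Lif did not reach the mean of 1 FPKM needed for the test, and fitted without that filter its log2 difference was 0.07 ± 0.31 (SE; adjusted p = 0.930, edgeR).

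The receptor subunits did not move together. Cntfr, the subunit that gives cells their response to CNTF, measured 36.02 and 38.0 CPM in P1041 and P1033 and 51.6 and 42.2 CPM in TP-1036 and TP-1040. Both transgenic-labelled libraries lay above wild type. The log2 difference of 0.34 ± 0.14 (SE) was the one among the 9 with an unadjusted p under 0.05 in edgeR (adjusted p = 0.538). In DESeq2 its unadjusted p was 0.056, and in limma it was 0.056 and 0.0569. The difference kept its sign in all 11 alternatives of the processing, as did those of Cntf, Lifr and Osmr. For Cntfr it was lowest at 0.19 when TP-1036 was left out and highest at 0.48 when TP-1040 was.

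Lifr, the receptor chain shared by LIF and CNTF, had its lowest value in TP-1036. It measured 131 and 147 CPM in wild type, 102 CPM in TP-1036 and 134 CPM in TP-1040, so TP-1040 lay between the wild-type libraries and TP-1036 below all others. The log2 difference was -0.23 ± 0.16 (SE, adjusted p = 0.564, edgeR) and became -0.44 when TP-1040 was left out, -0.05 when TP-1036 was and -0.15 when P1033 was. Lifr has the longest transcript of the 10, at 9655 bases, and TP-1036 is the library in which longer transcripts had lower values. The part of that relation in the Lifr value was not tested.

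Osmr, the oncostatin M receptor chain, which is itself known to be raised by STAT3, measured 42.6 and 49.7 CPM in wild type and 60.5 and 48.6 CPM in TP-1036 and TP-1040. TP-1036 was the highest, and TP-1040 lay between the wild-type libraries. The log2 difference was 0.24 ± 0.15 (SE, adjusted p = 0.552, edgeR), and it was smaller without TP-1036 (0.08) and P1041 (0.13) and larger when TP-1040 (0.39) or P1033 (0.36) was left out. Il6st, the shared signalling chain gp130, was nearly level, at 208 and 224 CPM in wild type and 221 and 221 CPM in TP-1036 and TP-1040. Its log2 difference was 0.04 ± 0.11 (SE, adjusted p = 0.896, edgeR), with the sign turned to -0.02 without P1041.

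Jak1, the kinase bound to gp130, was also nearly level. It measured 159 and 154 CPM in wild type and 147 and 163 CPM in TP-1036 and TP-1040, a log2 difference of -0.02 ± 0.11 (SE, adjusted p = 0.957, edgeR) that changed sign in 3 of 11 alternatives. The transgenic-labelled libraries lay one below and one above both wild-type libraries.

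Stat3, the factor the cytokines act through, measured 141 and 163 CPM in P1041 and P1033 and 175 and 139 CPM in TP-1036 and TP-1040. TP-1036 was the highest of the 4 libraries and TP-1040 the lowest. The log2 difference was 0.05 ± 0.15 (SE, adjusted p = 0.893, edgeR), and its sign turned without P1041 (-0.05) and without TP-1036 (-0.12). These are RNA levels, and phosphorylation of STAT3, by which the pathway is switched on, was not measured.

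Socs3, the inhibitor that STAT3 itself induces, was the gene with the widest spread between the transgenic-labelled libraries. It measured 12.2 and 13.6 CPM in P1041 and P1033, 20.1 CPM in TP-1036 and 9.63 CPM in TP-1040. TP-1036 lay above both wild-type libraries by 0.64 from their mean on the log2 scale, and TP-1040 below both by -0.42. The wild-type libraries differed by 0.16 and the transgenic-labelled ones by 1.06. The log2 difference between the genotypes was 0.20 ± 0.33 (SE, adjusted p = 0.786, edgeR), which became 0.65 without TP-1040 and -0.42 without TP-1036.

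The RefSeq promoter window of Socs3 is shown because Socs3 was the one member whose window held the STAT motif TTCNNNGAA. The motif reads the same on both strands, so a single search covers both, and overlap with other motifs was not searched. All 10 genes had at least 1 of 16 windows of 300 bases (250 before and 50 after a RefSeq start site, build GRCm38.p6), and 1 window held the motif, beside 8.30% of all 32851 windows and 9.55% of the 27025 genes with a window. The window of Socs3 is chr11:117969317-117969616 on the minus strand, 5′ to 3′, with the match TTCTTAGAA in capitals at position -154 from the start site. GENCODE M21 draws the gene farther out (chr11:117966079-117970047), so the window lies inside the gene as drawn there. The bases checked after the RefSeq start site were in no GENCODE M21 transcript of Socs3. That start site, and the position -154 counted from it, thus rest on RefSeq alone.
Socs3: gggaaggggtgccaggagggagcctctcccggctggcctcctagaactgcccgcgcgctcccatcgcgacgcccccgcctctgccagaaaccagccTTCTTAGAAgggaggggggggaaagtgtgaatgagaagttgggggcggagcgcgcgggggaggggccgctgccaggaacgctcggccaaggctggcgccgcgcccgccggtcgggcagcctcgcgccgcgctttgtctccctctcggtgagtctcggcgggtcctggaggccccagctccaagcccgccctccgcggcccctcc
Stat3, Osmr, Fgf2 and the other members had no match in their windows, which says only that these letters are not there.

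Fgf2, the growth factor, showed the same order of libraries as Stat3 in CPM. It measured 213 and 261 CPM in P1041 and P1033 and 265 and 174 CPM in TP-1036 and TP-1040, so TP-1036 was the highest and TP-1040 the lowest. On the FPKM scale, which has no TMM scaling, P1033 at 44.4 lay above TP-1036 at 43.6, so the top of this order depends on the scaling. The log2 difference was -0.11 ± 0.22 (SE, adjusted p = 0.828, edgeR), and its sign turned without P1033 (0.04) and without TP-1040 (0.17). Fgf2 (GRCm38 chr3:37348346-37410108, plus strand) overlaps Nudt6, a gene on the opposite strand, over 5199 bases. It also overlaps the entries Fgf2os and Gm42923 on the opposite strand, over 1395 and 2896 bases, and Gm43439 on its own strand, over 56521 bases. The sources used here do not say if the counting used strand, so reads of Fgf2 and of these overlapping genes cannot be fully told apart. Nudt6 had between 1.29 and 1.59 reads per 100 reads of Fgf2 in the 4 libraries.

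The spread between the transgenic-labelled libraries was thus larger than the difference between genotypes for several members. Of the 9 tested genes 6 were highest in TP-1036 in CPM (Cntf, Cntfr, Osmr, Stat3, Socs3 and Fgf2), a share of 66.7% beside 39.2% of all tested genes. Cntf and Cntfr have the shortest transcripts of the 10, at 1073 and 1995 bases, and shorter transcripts had higher values in TP-1036. The part of that relation in their values was not tested. Stat3, Socs3 and Fgf2 lay above both wild-type libraries in TP-1036 and below both in TP-1040 in CPM, which was the case for 7.72% of all tested genes. For Fgf2 TP-1036 was above P1033 by little, and not on the FPKM scale. The median size of the log2 difference between TP-1036 and TP-1040 was 0.33 over the 9, against 0.21 over all tested genes, and that between the wild-type libraries was 0.16 against 0.10. Without TP-1040 the test, with TP-1036 as the lone transgenic-labelled library and assumed to vary like the wild-type ones, passed 5 of the 9, beside 30.9% of all tested genes. The 4 higher were Cntf (adjusted p = 0.0174, edgeR), Cntfr (0.00824), Osmr (0.0275) and Socs3 (0.00804), and the lower one was Lifr (0.00992). Over the other alternatives the adjusted p of each ran up to 1. Without P1041, without P1033 and without TP-1036 in turn, 0 of the 9 passed, beside 0.229%, 0.717% and 0.213% of all tested genes.

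**Figure D3:**
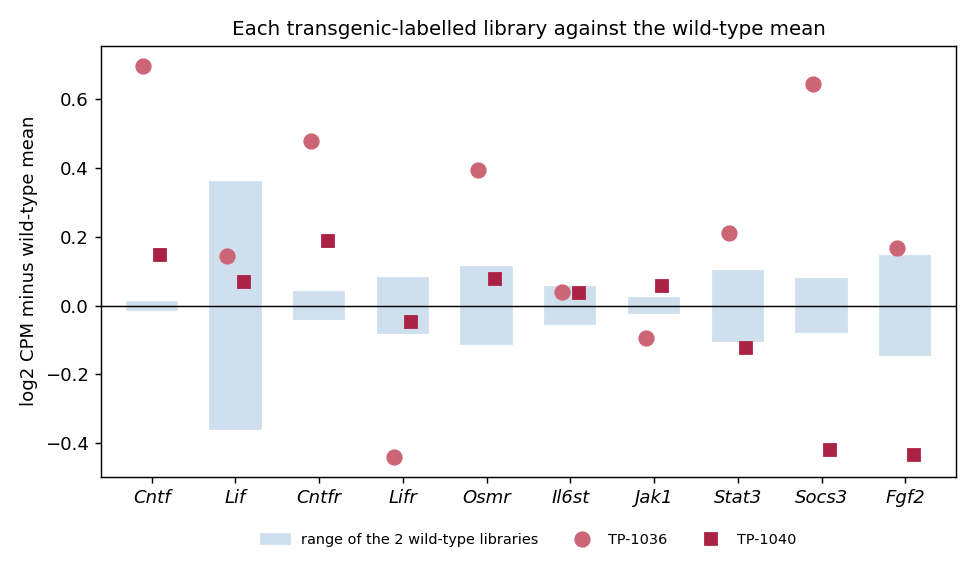
Difference of each transgenic-labelled library from the wild-type mean (log2 CPM), with a box spanning the wild-type libraries, which lie at equal distances to either side of 0. For Stat3, Socs3 and Fgf2 the circle of TP-1036 lies above the box and the square of TP-1040 below it, and for Il6st both lie inside it.

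Most other genes of the gp130 family were rare or not listed. Of 13 further ligand and receptor genes 4 were in the table and 2 were tested, and 0 passed (edgeR; 0 at an unadjusted p of 0.05, and 0 in DESeq2). Il11ra1, the interleukin-11 receptor, stood at 19.3 ± 0.131 against 20.5 ± 2.40 CPM (SD, n = 2), and Ctf1, the related cytokine cardiotrophin, at 2.20 ± 0.493 against 2.36 ± 0.0197 CPM. Il6ra, the interleukin-6 receptor, was too rare for the test, with 32 and 45 reads in wild type and 125 and 109 reads in TP-1036 and TP-1040. Both transgenic-labelled libraries lay above both wild-type ones, by 1.41 and 1.10 from the wild-type mean on the log2 scale. Interleukin-6 and interleukin-11 themselves (Il6 and Il11) and oncostatin M (Osm) were not among the entries.

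The other kinases and STAT factors differed little between the genotypes. Of 8 tested genes 6 had a higher and 2 a lower value, beside 50.4% above 0 among all tested genes, with a median of 0.07. With edgeR and with DESeq2 0 of the 8 passed the adjusted p. At an unadjusted p under 0.05 there were 0 (edgeR), beside 8.88% of all tested genes. Stat5a was at 4.07 ± 0.906 against 5.17 ± 0.111 CPM, Stat6 at 7.02 ± 1.00 against 8.37 ± 0.442 CPM and Stat5b at 62.9 ± 2.58 against 62.5 ± 10.2 CPM (SD, n = 2). The annotated ends of Stat5a and Stat3 overlap by 72 bases on opposite strands.

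Inhibitors and phosphatases were split between the directions. Of 14 tested genes 7 had a higher and 7 a lower value, and the median was -0.004. With edgeR and with DESeq2 0 passed. At an unadjusted p under 0.05 there was 1 (edgeR), beside 8.88% of all tested genes. That gene was Ptpn6, a phosphatase of blood cells, with 73 and 104 reads in wild type and 205 and 172 reads in TP-1036 and TP-1040 (log2 difference 0.75 ± 0.25, SE). Socs4, a SOCS family gene, stood at 56.0 ± 0.815 against 45.3 ± 6.79 CPM and Pias4, a SUMO ligase that acts on STATs, at 37.6 ± 3.01 against 46.1 ± 5.69 CPM (SD, n = 2). Without TP-1040 these 3 of the 14 passed, beside 30.9% of all tested genes. Socs7 at 210 ± 3.35 against 226 ± 4.46 CPM and Pias3, an inhibitor of STAT3, at 98.7 ± 0.475 against 95.5 ± 15.4 CPM were the most abundant per length. Beside Il6ra and Ptpn6, 13 of 13 microglia and macrophage markers had higher values, where 50.4% of all tested genes lay above 0. The summed level of these markers was 199.7 and 226 CPM in P1041 and P1033 and 490.2 and 341 CPM in TP-1036 and TP-1040. Their part in the values of Il6ra and Ptpn6 was not tested. Of 7 neutrophil and lymphocyte markers 0 were in the table.

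Genes known to be raised by gp130 or Stat3 signalling in glia or in acute phase responses had mostly higher values, and mostly in TP-1036. Of 19 tested genes 18 had a higher and 1 (Edn2) a lower value, beside 50.4% above 0 among all tested genes. The median was 0.29 against 0.0023 over all tested genes. With each library left out, higher values were met in 13 of 19 without TP-1036 (median 0.08) and 15 without P1041 (0.17). They were met in 18 without P1033 (0.42) and 17 without TP-1040 (0.53). Measured from the wild-type mean, the median was 0.54 for TP-1036 and 0.10 for TP-1040, and P1033 lay 0.31 above P1041, which is as large as the difference between the genotypes. With edgeR and with DESeq2 0 of the 19 passed the adjusted p. At an unadjusted p under 0.05 there were 4 (edgeR), beside 8.88% of all tested genes. Without TP-1040, where TP-1036 alone stands for the transgenic-labelled group, 11 of the 19 passed with higher values, beside 30.9% of all tested genes.

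Hspb1, a small heat shock protein gene, had the smallest p and nearly equal values in both transgenic-labelled libraries. It had 100 and 146 reads in P1041 and P1033 against 301 and 315 in TP-1036 and TP-1040, or 3.95 ± 0.663 against 7.83 ± 0.160 CPM (SD, n = 2; log2 difference 0.98 ± 0.20, SE, adjusted p = 0.538, edgeR). Gfap, whose filaments mark reactive glia, was measured at 106 ± 13.9 against 158 ± 34.0 CPM (0.58 ± 0.18), and Fos, the immediate early gene, at 20.7 ± 4.52 against 28.6 ± 0.352 CPM (0.46 ± 0.17). Vim, a filament of Müller glia, stood at 212 ± 5.12 against 297 ± 89.4 CPM (0.49 ± 0.21).

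Several genes of this list were ordered over the libraries as Socs3 was. Bcl3, a regulator of NF-kB that STAT3 raises, had 279 and 338 reads in wild type, 687 in TP-1036 and 192 in TP-1040, which is 0.86 above and -1.08 from the wild-type mean on the log2 scale. Lcn2, the acute phase gene of lipocalin 2, had 0.88 for TP-1036 against -0.52 for TP-1040, and the AP-1 gene Junb had 0.54 against -0.20. With Hmox1, heme oxygenase, these were the 4 of 19 above both wild-type libraries in TP-1036 and below both in TP-1040 (21.1%, beside 7.72% of all tested genes). Edn2, the endothelin of stressed photoreceptors, was the lower one, with 1491 and 2488 reads in wild type, 2160 in TP-1036 and 1276 in TP-1040. TP-1040 lay -1.0 from the wild-type mean there, and TP-1036 lay between the wild-type libraries in CPM. In all, 16 of the 19 were highest in TP-1036 (84.2%, beside 39.2% of all tested genes). Their transcripts ran from 883 to 4605 bases, most of them shorter than the median of 3472 bases over the table. TP-1036 is the library in which shorter transcripts had higher values. The part of that relation in these counts was not tested.

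**Figure D4:**
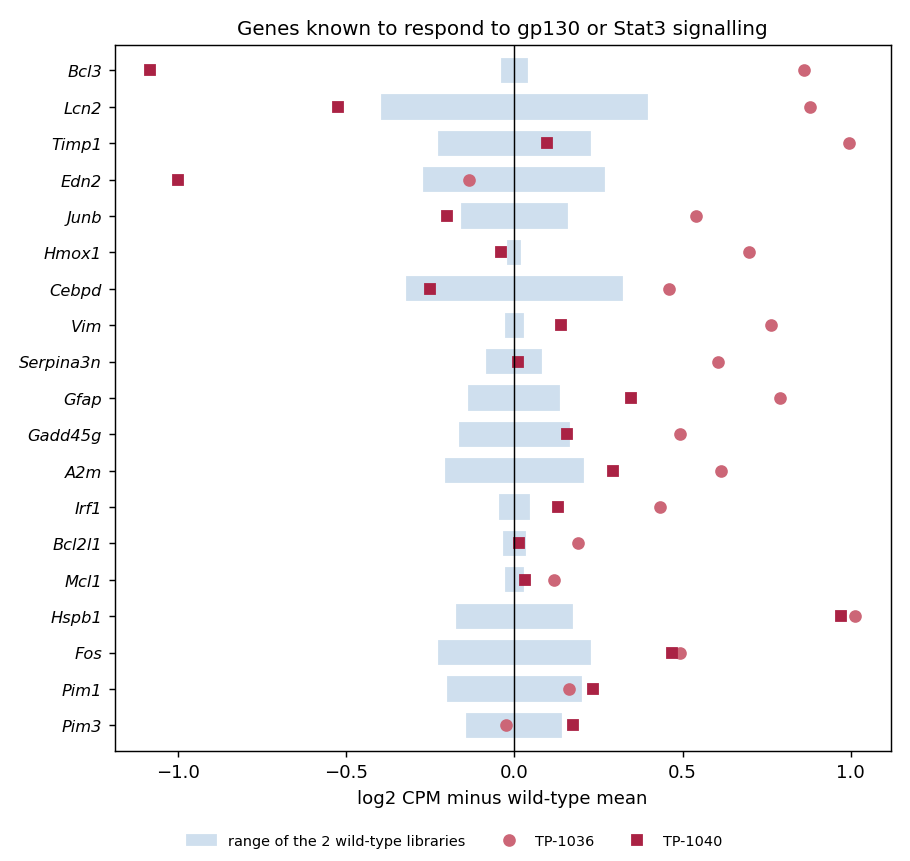
Difference from the wild-type mean (log2 CPM) of 19 genes known to respond to gp130 or Stat3 signalling, with circles for TP-1036, squares for TP-1040 and a box spanning the wild-type libraries. Genes are in order of the gap between TP-1036 and TP-1040, which is widest for Bcl3, Lcn2 and Timp1, while both libraries lie near 1 for Hspb1.

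Markers of Müller glia, the cells in which retinal gp130 and Stat3 signalling is best known, also had their highest sum in TP-1036. All 13 of 13 had higher values, beside 50.4% above 0 among all tested genes, with a median of 0.39. Their summed level was 6942 and 7434 CPM in P1041 and P1033 and 11400 and 8715 CPM in TP-1036 and TP-1040. Their most abundant members per length were Apoe, Clu and Glul, and Vim is in both lists. All 5 tested astrocyte markers, with Gfap in both lists, had higher values, and their sum was 214 and 189.7 CPM against 298 and 232 CPM. Defining markers of Müller glia (Rlbp1, Glul) and ganglion cells (Rbpms) were present in each library. Higher values were not particular to glia. All 8 rod markers and all 3 tested pigment epithelium markers had them, and their sums were highest in TP-1036 (69770 and 82.7 CPM). Markers of ganglion and amacrine cells, given below, had lower values. The part of the glial markers in the values of Socs3, Osmr and Cntf was not tested.

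In the FGF family the genotypes did not overlap for 3 of 6 tested ligand genes besides Fgf2 and for 9 of 20 receptor, adaptor and feedback genes, beside 47.8% of all tested genes. Those shares lie near the background. Fgf10, lower in both transgenic-labelled libraries, and Fgf22, higher in both, were too rare for the test and did not overlap either. Of the 6 ligand genes 2 had a higher and 4 a lower value, beside 50.4% above 0 among all tested genes, with a median of -0.29. With edgeR and with DESeq2 0 passed. At an unadjusted p under 0.05 there were 3 (edgeR), beside 8.88% of all tested genes. Fgf1, the acidic fibroblast growth factor, had 1276 and 1058 reads in wild type and 948 and 1017 reads in TP-1036 and TP-1040, or 38.3 ± 8.79 against 25.0 ± 0.0717 CPM (SD, n = 2; log2 difference -0.61 ± 0.17, SE, adjusted p = 0.538, edgeR). Both transgenic-labelled libraries lay below both wild-type ones. Fgf11, Fgf12, Fgf13 and Fgf14 stay inside neurons and act on sodium channels, so the counts of this list are not of secreted ligands alone. Fgf12 and Fgf14 lay at -0.46 ± 0.16 and -0.49 ± 0.19 (log2, SE). Fgf11 at -0.12 ± 0.13 and Fgf13 at 0.02 ± 0.12 were the most abundant per length. Of these 6 genes 5 were highest in P1041, and P1033 lay below P1041 by a median of -0.24. The order of the other libraries varied among the 6. Markers of ganglion cells also had their highest sum in P1041, with 784 and 524 CPM in P1041 and P1033 and 484 and 426 CPM in TP-1036 and TP-1040. Of these markers 9 of 9 had lower values, where 50.4% of all tested genes lay above 0. The sum of amacrine cell markers was ordered as that of ganglion cells, with 1108 and 963 CPM in P1041 and P1033 and 887 and 856 CPM in TP-1036 and TP-1040. Here 7 of 7 had lower values. The part of both marker lists in the FGF values was not tested.

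Of 20 receptor, adaptor and feedback genes 11 had a higher and 9 a lower value, beside 50.4% above 0 among all tested genes, with a median of 0.06. With edgeR and with DESeq2 0 passed. At an unadjusted p under 0.05 there were 3 (edgeR), beside 8.88% of all tested genes. These 3 were Fgfr1, the FGF receptor gene with the most reads here, at 41.8 ± 6.15 against 57.3 ± 4.63 CPM, Fgfrl1, a receptor without a kinase domain, at 5.77 ± 0.918 against 8.51 ± 0.308 CPM, and the adaptor Grb2 at 53.2 ± 0.482 against 64.3 ± 1.06 CPM (SD, n = 2). Their log2 differences were 0.46 ± 0.14, 0.56 ± 0.19 and 0.27 ± 0.11 (SE, adjusted p = 0.538 each, edgeR), and both transgenic-labelled libraries lay above wild type in all 3. Sdc4, a proteoglycan that binds FGF2, was the most abundant per length and stood at 65.1 ± 3.82 against 75.7 ± 4.03 CPM.

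**Figure D5:**
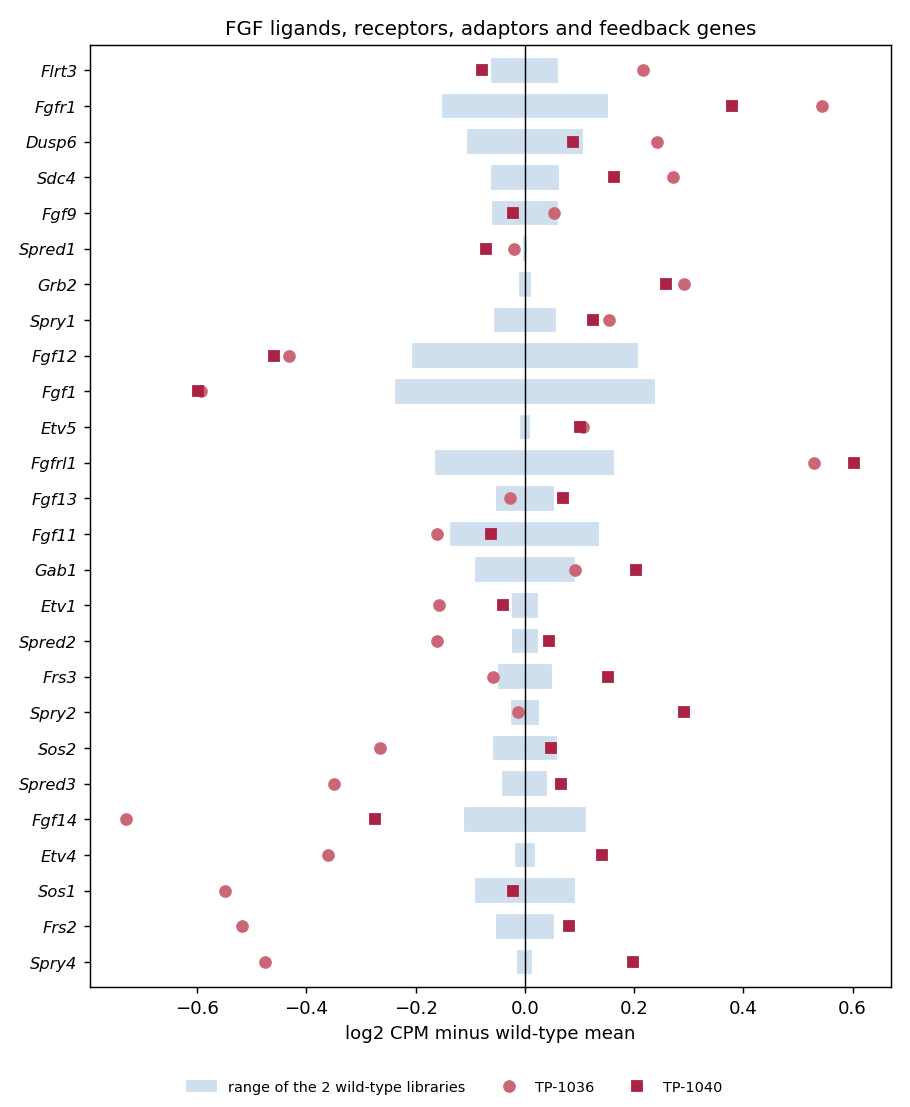
Difference from the wild-type mean (log2 CPM) of the 26 tested FGF ligand, receptor, adaptor and feedback genes, drawn as circles for TP-1036, squares for TP-1040 and a box spanning the wild-type libraries. Fgf1, Fgf12 and Fgf14 lie below their boxes in both libraries and Fgfr1, Fgfrl1 and Grb2 above them.

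The patterns of Stat3, Osmr and Fgf2 over the 4 libraries were also met in other genes. By the root-mean-square difference of centred log2 CPM genes near to Stat3 included Zfpm1 (0.015) and Dph6 (0.020), and those nearest to Osmr were Ccdc113, Tspan4 and Jpt2 (0.010 to 0.017). Within a distance of 0.1 there were 931 genes for Stat3 and 888 for Osmr, but 38 for Fgf2, whose nearest were Sspn, Zcchc12 and Nipsnap3b (0.036 to 0.046).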

How the data were processed

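Per the labels' protocols, libraries were made from total retinal RNA with an Illumina TruSeq RNA kit. Bowtie 0.12.2 and the builds mm8 and mm9 are listed, without a role, in the submitters' processing notes, and the sources used here name no counter, annotation or filter. The authors deposited estimated counts per gene, of which 80.3% to 82.4% per library were whole, and the smallest total over the 4 libraries was 76.9. Another 4 columns of FPKM were not used, and the count columns carry a group and no sample. Here FPKM was computed from counts, totals and the longest GENCODE M21 transcript (167 entries got the median of 3472 bases). The counts were rounded, and entries averaging 1 FPKM or more (12687 of 14572) were tested with edgeR 4.0.16 in R 4.3.3 (TMM scaling, quasi-likelihood test, two-sided, Benjamini-Hochberg over all tested genes, threshold 0.05). CPM uses TMM-scaled library sizes, SE is the log2 difference over the square root of F, and per-library log2 CPM has 0.5 reads added. Alternatives used DESeq2 1.42.0, limma 3.58.1, other scalings, other filters and each library left out. The tests were checked on simulated data. The labels do not say whether libraries are separate animals, so p-values reflect the spread of these libraries, which may be technical, and no batch or date is given. The wild-type libraries differed by 11.0 times the chi-square of sampling noise and the transgenic-labelled ones by 59.7 times. Promoter sequences are RefSeq's.

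Members and gene lists were chosen with earlier results of these data known. The text names each member, from each pathway list the 3 genes with the smallest p and the 2 with the highest FPKM, and the 3 genes nearest in pattern to Stat3, Osmr and Fgf2. Il6ra, Bcl3, Lcn2, Junb, Hmox1, Timp1, Edn2, Fgf10 and Fgf22 were named after their values were seen. Some genes that these rules take are not reported here.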

Additional observations from a re-analysis of the deposited data

How the results depend on the processing

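Over all tested genes edgeR passed 0, and 0 also with RLE scaling and at a mean FPKM of at least 5. The number was 69 with DESeq2, 1 with upper-quartile scaling, 1 without a filter, 2 with limma on log2(FPKM + 1) and 2 on log2(FPKM + 0.1), and 27 to 3923 when each library was left out. Among the 10 genes the sign turned without P1041 for Il6st (-0.018), Stat3 (-0.047) and Jak1 (0.005), without P1033 for Fgf2 (0.043), without TP-1036 for Stat3 (-0.122), Socs3 (-0.418) and Jak1 (0.060), without TP-1040 for Fgf2 (0.166), and for Jak1 with upper-quartile scaling (4e-04). The cause was not tested. With each library left out in turn, values ran from -0.018 to 0.092 for Il6st, from -0.122 to 0.213 for Stat3, from -0.418 to 0.647 for Socs3, from -0.089 to 0.060 for Jak1 and from -0.437 to 0.166 for Fgf2. When each library was left out, the tested genes passing ran from 0 to 5 for the 9 members, 0 to 1 for kinases and STATs, 0 to 3 for inhibitors, 0 to 11 for Stat3 response genes, 0 to 2 for FGF ligands and 0 to 5 for FGF receptors and feedback genes, each time with the highest number without TP-1040. The number with higher values ran from 1 to 2 of 2 for gp130 ligands and receptors and from 0 to 3 of 6 for FGF ligands. For Stat3 response genes it ran from 13 to 18 of 19. No paired analysis was possible because the columns carry no replicate number. Lif rests on 50 to 96 reads per library, too few for a small difference to be seen.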
